A study of Macaca mulatta with 4 samples.

Results

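Tight runs of HIF-1α peaks were places on the rhesus genome where the 6 h infarct list had at least 5 called peaks in a row, with no more than 10 kb from the end of 1 peak to the start of the next. The members were chosen by the start and end positions of the 6 h peaks alone, on chromosomes 1 to 20. This gave 36 runs with 363 peaks, out of 8236 peaks of that list on these chromosomes and 13351 in the whole list. The runs thus held 4.41% of the 6 h peaks on chromosomes 1 to 20. Since those positions made the choice, the number, span, spacing and widths of 6 h peaks in the runs are given below as a description. The 4-week list took no part in the choice.

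The data came from hearts of male rhesus macaques in which the left anterior descending coronary artery had been ligated to cause a myocardial infarction. ChIP-seq, which sequences DNA bound to an immunoprecipitated protein, was done with an antibody against HIF-1α on heart tissue taken 6 h (early infarct) or 4 weeks (late infarct) after ligation. Of the 4 samples, 1 was a HIF-1α ChIP library and 1 an input library without antibody at each time, and both ChIP libraries came from infarcted hearts. Neither the number of animals behind a library nor their age is given in the labels. Both deposited lists hold peak positions only, so read depth and the height of each peak are unknown. With 1 library at each time, no difference between times has a replicate check and none was tested.

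HIF-1 is a transcription factor made of an oxygen-regulated subunit, HIF-1α, and a constant partner, HIF-1β. HIF-1α is marked for destruction when oxygen is plentiful and accumulates when oxygen is short. The dimer then binds short hypoxia response elements in promoters and enhancers and raises genes for glycolysis, vessel growth and oxygen supply, VEGFA among them. A peak is a stretch where a caller found more ChIP reads than input reads, and neighbouring peaks can be separate binding sites or pieces of 1 broad enriched stretch. Peak positions alone do not tell these apart. Gene annotation and genome sequence of the build of the lists were not used here, so the runs are named by position, and neither genes nor response elements are given for them.

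The runs were short and uneven in size. Of the 36 runs, 26 had 5 to 9 peaks and 10 had 10 or more, and those 10 held 208 of the 363 peaks. The median run had 6 peaks in 14.9 kb (quartiles 11.1 and 25.1 kb), from 4.50 kb for the shortest to 108 kb for the longest. All spans together came to 0.819 Mb, of which called peaks covered 18.4%. Peak coverage of a single run went from 8.03% on chromosome 16 at 54947564 to 54963822 to 64.02% on chromosome 18 at 35892840 to 35898604. The 2 runs with the most peaks, both on chromosome 17, held 96 peaks, or 26.4% of all run peaks.

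**Figure D1:**
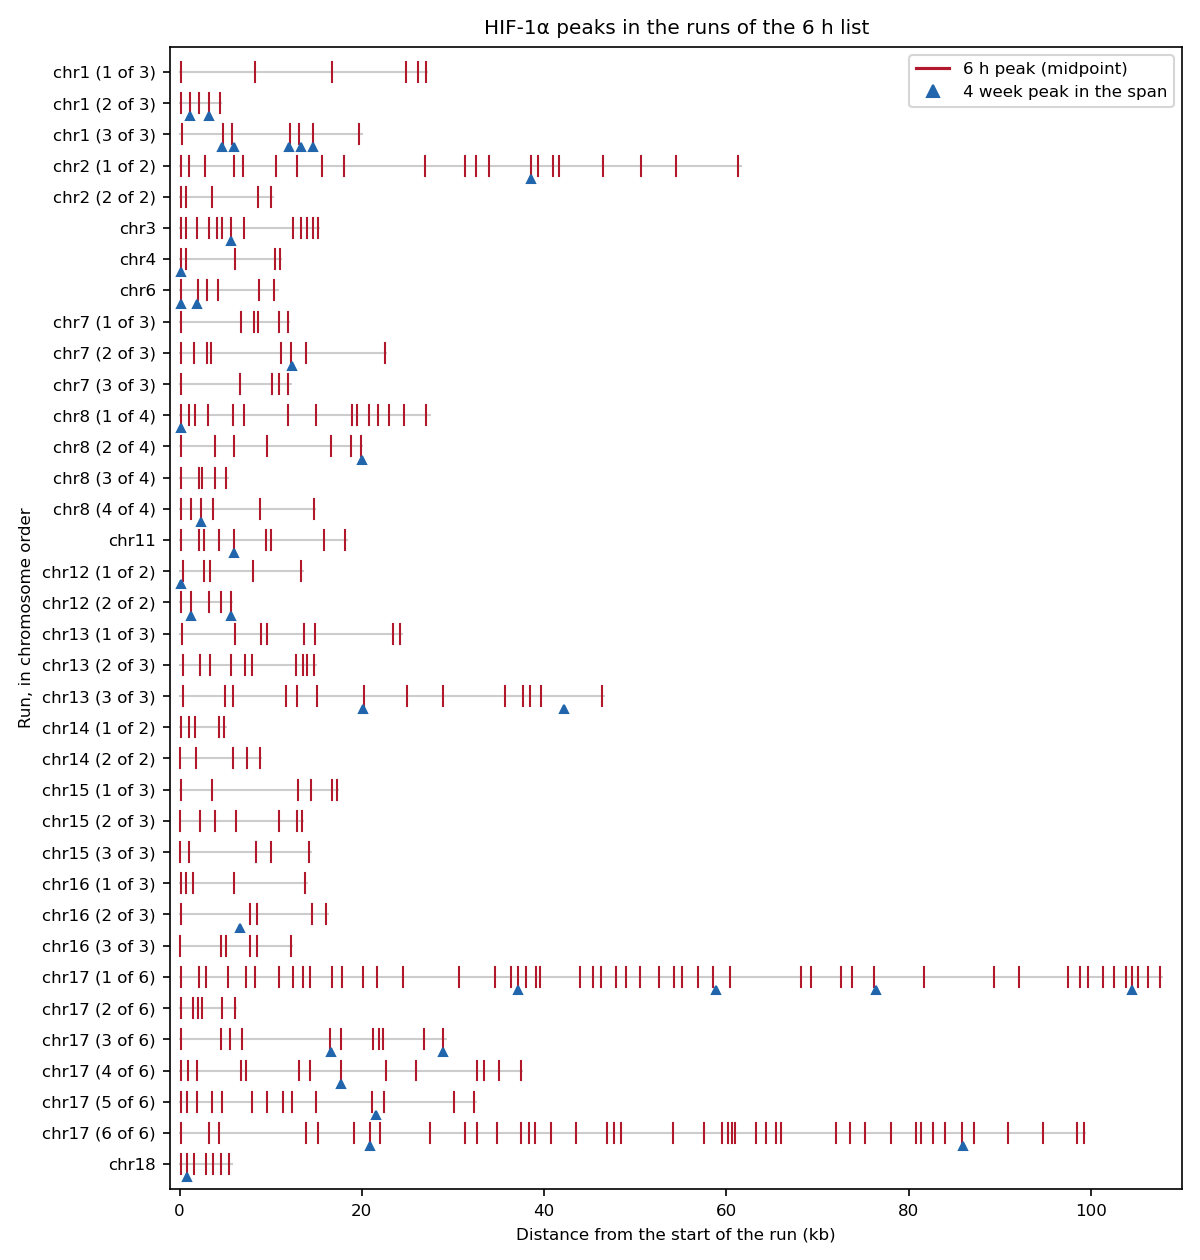
Position of every 6 h peak (red lines) and every 4-week peak (blue triangles) in the 36 runs, as distance in kb from the start of each run; numbers in brackets count the runs of a chromosome from its start. Of the 36 runs 30 are shorter than 30 kb, the 2 longest are on chromosome 17, and blue triangles are few and nearly all lie under a red line.

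The rule cut a continuous range of groupings. Groups of 4 peaks under the same gap limit numbered 21 and runs of exactly 5 numbered 12, with median spans of 10.3 and 10.7 kb. The largest gaps kept inside a run were 9223 and 9074 bp, and the smallest gaps that ended a run were 10472 and 10945 bp. Only 3 of the 327 gaps inside runs were over 9 kb, while 145 were at most 1 kb, the smallest being 152 bp and the median 1186 bp.

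Chromosome 17 held the most clustered peaks. Its 6 runs had 141 peaks, which was 38.8% of all run peaks and 41.2% of the 342 peaks of that chromosome, and 96 of the 141 were in 2 runs. Chromosomes 8 and 13 followed with 9.43% and 9.36% of their peaks in runs, from 4 and 3 runs. On the other 12 chromosomes with a run the share lay between 1.10% (chromosome 4) and 4.96% (chromosome 18). Chromosomes 5, 9, 10, 19 and 20 had no run at all. Chromosome 19 had the densest peaks of the 20 chromosomes, 6.57 per Mb, and its largest group was of 4 peaks. Chromosome 20 had 4.10 peaks per Mb and likewise a largest group of 4, and chromosome 10 had 4.51 per Mb with groups of at most 3. Chromosome 16, at 5.34 per Mb, had 3 runs with 16 peaks. The chromosomes with the highest shares in runs were thus not the densest, with 3.58 peaks per Mb on chromosome 17, 2.43 on chromosome 8 and 3.15 on chromosome 13.

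**Figure D2:**
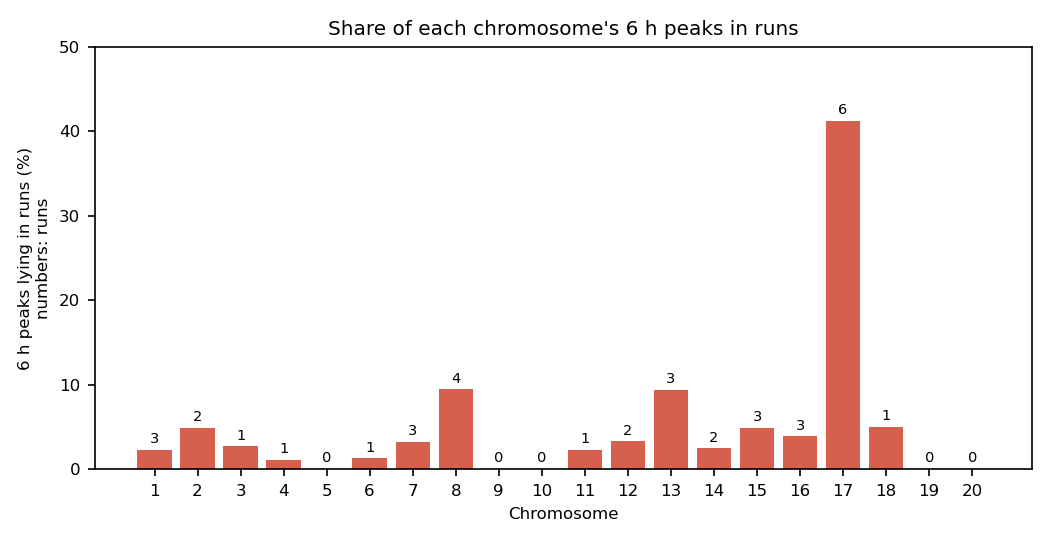
Percent of the 6 h peaks of each chromosome that lay in runs, with the number of runs above each bar. Chromosome 17 stands at 41.2%, no other chromosome is above 9.43%, and chromosomes 5, 9, 10, 19 and 20 have none.

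Runs often had other runs nearby. Another run lay within 1 Mb for 20 of the 36 runs and within 100 kb for 9, and these 20 runs formed 8 neighbourhoods with 201 peaks. Some neighbours were split only by the 10 kb limit and would be joined at 20 kb. They lay 11.5 kb apart on chromosome 13, and 15.7 and 17.1 kb apart on chromosome 17. On chromosome 17, 5 runs lay one after the other between 8947379 and 9272674, with 89 run peaks among 93 peaks in 325 kb. On chromosome 13, 3 runs between 103309733 and 103627758 held 32 of 35 peaks in 318 kb. On chromosome 8 there were 2 such neighbourhoods, at 20134 to 178913 with 22 of 31 peaks in runs and at 7285869 to 7690199 with 11 of 17. The first of these began 20.1 kb from the start of the chromosome, and its 2 runs were the only ones within 2 Mb of an end. A further 18 runs lay 2 to 10 Mb from an end, among them all 6 of chromosome 17. Many of these 18 were neighbours of one another. The share of all 6 h peaks at that distance was not taken, so no preference for ends is read from the count. Far ends were taken from the last peak of either list, which can lie short of the true end.

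Spacing inside the runs was mostly irregular. It was measured from midpoint to midpoint of neighbouring peaks, and its evenness by the coefficient of variation (CV, the SD over the mean), which is 0 for even spacing. The 327 spacings had a median of 1616 bp (quartiles 1000 and 3512 bp), from 415 to 9730 bp. The CV had a median of 0.78 over the 36 runs (quartiles 0.65 and 0.86), and it was under 0.5 in 3 runs, 0.5 to 1 in 28 and over 1 in 5. Only 54 spacings (16.5%) were within 10% of the median of their run, and 82 (25.1%) within 20%. Of 291 pairs of neighbouring spacings, 19 (6.53%) differed by at most 5%. A CV from a run of 5 peaks rests on 4 spacings, and the 5 lowest values all came from runs of 5 to 7 peaks. The values also depend on neighbouring peaks being called apart. With 6 h peaks within 1 kb merged, none of the 3 runs with a CV under 0.5 was still a run. The median CV of the 16 runs found after merging was 0.49.

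**Figure D3:**
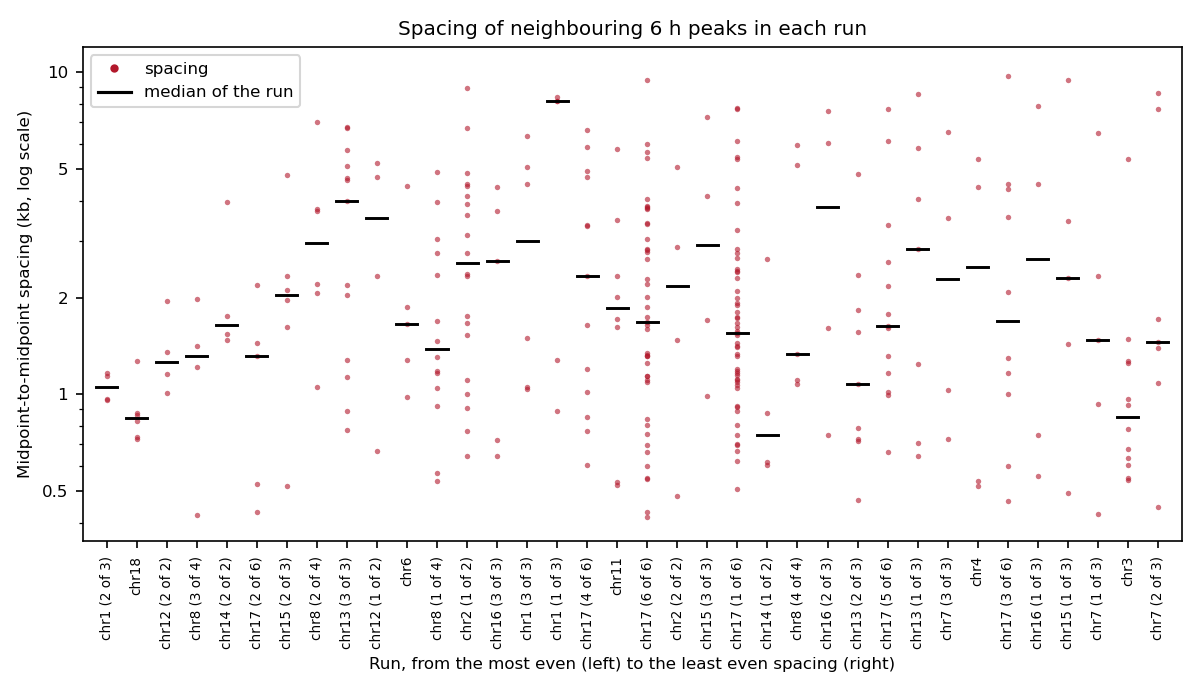
Every midpoint-to-midpoint spacing (dots, kb, log axis) in each run, with the run median as a black line, ordered from the lowest CV (0.10) on the left to the highest (1.07) on the right. Spacings of the leftmost runs sit close to their median, while in most runs they spread over a range of several kb.

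By midpoints, the most even run was on chromosome 1 at 136163976 to 136168471, with 5 peaks in 4.50 kb and a CV of 0.10. Measured from start to start its CV was 0.26, above the 0.21 of the chromosome 18 run described next, so the order of these 2 depended on the measure. Its spacings were 968.5, 961, 1138 and 1170 bp. Its widths took turns, with narrow peaks of 294, 233 and 224 bp on either side of wide peaks of 523 and 776 bp. Both wide peaks, and none of the narrow ones, had a 4-week peak, of 443 and 719 bp, lying wholly inside them.

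The second by midpoints, on chromosome 18 at 35892840 to 35898604, had 7 peaks in 5.77 kb and a CV of 0.22. Its spacings were 738.5, 729.5, 1266, 829, 862.5 and 879 bp, so 1 spacing stood apart and the others were within 149.5 bp of one another. Its peaks were wide, at 252, 579, 226, 870, 398, 697 and 669 bp, and left only 195 to 718 bp between them. A single 4-week peak of 304 bp lay inside the second peak.

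The third, on chromosome 12 at 94711345 to 94717148, had 5 peaks in 5.80 kb, with spacings of 1161, 1957, 1359 and 1010 bp and a CV of 0.30. It had 4-week peaks of 213 and 227 bp, inside its second and last peaks. The next 2 in order had no 4-week peak. They were on chromosome 8 at 7285869 to 7291207 (CV 0.51, spacings 422 to 1973 bp) and on chromosome 14 at 9580559 to 9589508 (CV 0.55, 1477 to 3969 bp). On chromosome 14 the spacings other than the longest, at 1749, 1541 and 1477 bp, were close to one another.

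**Figure D4:**
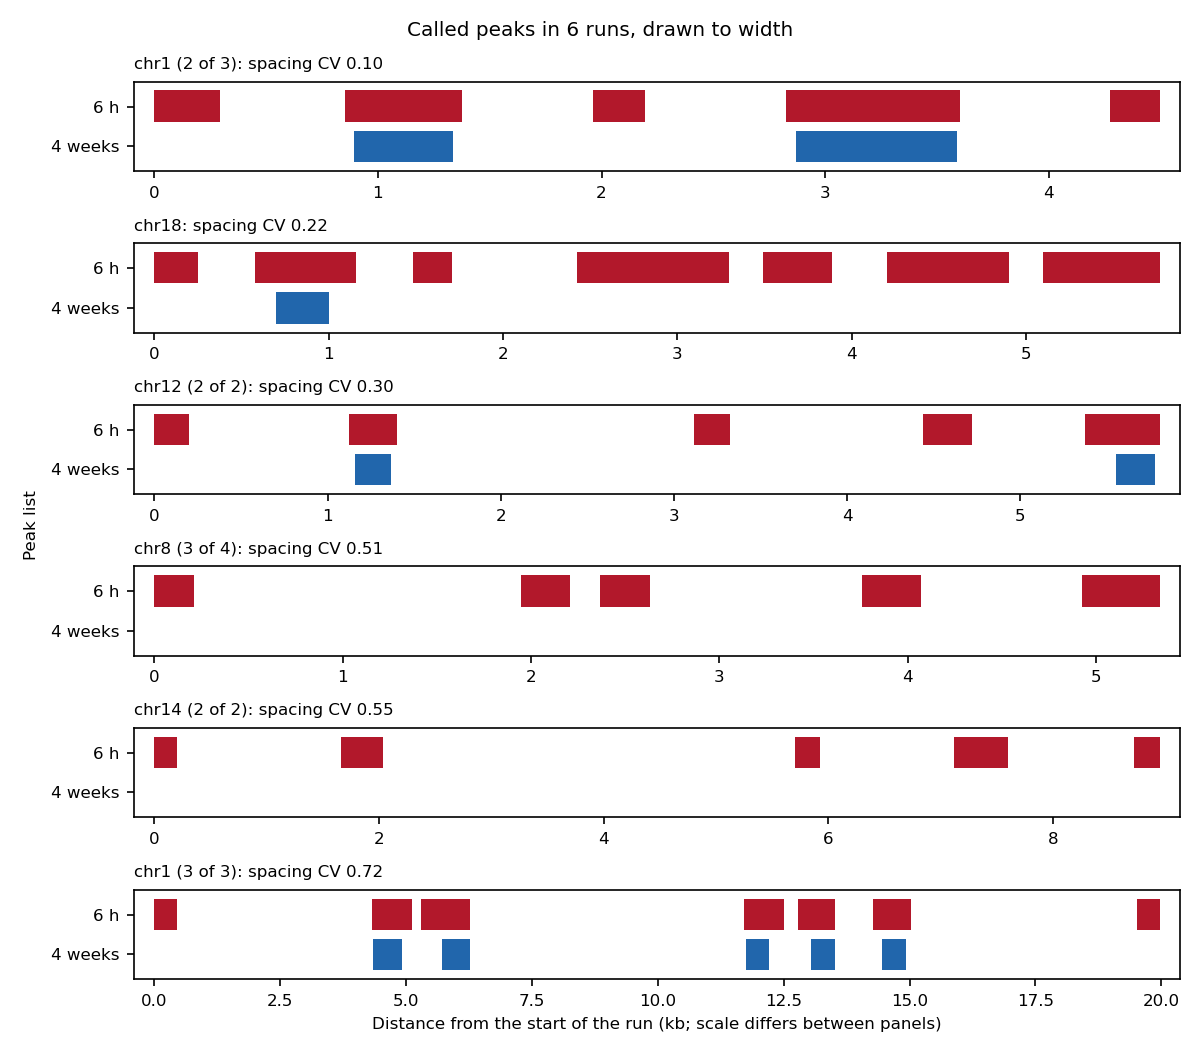
Called peaks at 6 h (red) and 4 weeks (blue), drawn to width, in the 5 runs of most even spacing and in the chromosome 1 run with the most 4-week peaks; the x axis is distance in kb from the start of the run and its scale differs between panels. In the top panel the wide peaks have a 4-week counterpart and the narrow ones do not, and in the bottom panel 5 of 7 peaks have one.

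At the other end, the 3 least even runs were on chromosome 7 at 55361804 to 55384462 (CV 1.07), chromosome 3 at 55745005 to 55760356 (CV 1.07) and chromosome 7 at 20019770 to 20031741 (CV 1.04). From start to start, the chromosome 3 run came first (1.11) and the run on chromosome 16 at 24972968 to 24986896 (1.04) took the place of the third. In the chromosome 7 run at 55361804, 8 peaks had spacings from 447.5 to 8649 bp, and in the one at 20019770, 6 peaks had 425 to 6488 bp. The chromosome 3 run was dense apart from 1 break. Its 13 peaks had a median spacing of 853 bp, the longest spacing was 5391 bp, and 2 of its peaks were 1233 and 1029 bp wide. The run on chromosome 1 at 124173577 to 124200776 had a CV of 0.73 but an even first part. Its first 3 spacings, 8170, 8398 and 8148 bp, were within 3.07% of one another, and the last 2 were 1281 and 885.5 bp. That run was picked out after its values were seen, and it had no 4-week peak.

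Neither large run on chromosome 17 had an even pattern. The run at 2304582 to 2412362 had 52 peaks in 108 kb, with a median spacing of 1550 bp (507 to 7744 bp) and a CV of 0.81. Only 13 of its 51 spacings were within 20% of the median. The run at 9173313 to 9272674 had 44 peaks in 99.4 kb, with a median spacing of 1681 bp (415 to 9505 bp) and a CV of 0.80, and 7 of 43 spacings were within 20%. Of the other runs with 10 or more peaks, the highest CV was 1.07 on chromosome 3 and the next 0.99, on chromosome 17 at 8989396 to 9018610 (11 peaks, 29.2 kb). The lowest was 0.63, on chromosome 13 at 103581203 to 103627758 (14 peaks, 46.6 kb). Between them lay the runs on chromosome 2 at 7097545 to 7159151 (21 peaks, 61.6 kb, CV 0.70), chromosome 8 at 20134 to 47585 (15 peaks, 27.5 kb, 0.68), chromosome 13 at 103554691 to 103569689 (10 peaks, 15.0 kb, 0.86) and chromosome 17 at 9034322 to 9071880 and 9123661 to 9156168 (14 peaks each, 0.73 and 0.86).

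Peaks in the runs were wide. Their median width was 340 bp (quartiles 253 and 504.5 bp), against 251 bp (201 and 327 bp) for the 7873 other 6 h peaks on chromosomes 1 to 20. Of the run peaks 47.4% were wider than 350 bp, against 20.5% of the others, and 25.1% were wider than 500 bp, against 5.73%. Only 15 (4.13%) had the narrowest width of the list, 199 bp, against 24.04% of the others. Peaks over 1000 bp were rare on these chromosomes, and 10 of the 21 were in runs. The widest peak in a run was 1356 bp, on chromosome 17 at 9175821 to 9177176. The next in a run was 1254 bp, on chromosome 2 at 7103844 to 7105097. Outside the runs the widest peak on these chromosomes was 1918 bp. The median width exceeded that of the other peaks in 34 of 36 runs.

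Width went with the size of the group, apart from a dip at groups of 4. Median widths were 248 bp for peaks with no neighbour within 10 kb, 254 bp in pairs, 280 bp in groups of 3, 272 bp in groups of 4, 304 bp in runs of 5 to 9 and 363.5 bp in runs of 10 or more. The share at 199 bp was lower at each step of the same order, with 24.96%, 21.9%, 15.1%, 13.1%, 8.39% and 0.962%. Widths also varied inside runs, with a median CV of 0.44. The highest median width of a run was 750 bp, on chromosome 1 at 204825768 to 204845734, and the lowest 231 bp, on chromosome 14 at 9580559 to 9589508.

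The 4-week list was then read inside the run spans. It had 34 peaks there, in 21 of the 36 runs. The other 15 runs had none, 13 had 1, 6 had 2, 1 had 4 and 1 had 5. Of the 10 runs with at least 10 peaks 9 had a 4-week peak, and of the 26 smaller ones 12 did. Longer spans have more room for a peak. For each 4-week peak there were 10.7 6 h peaks in the spans, where the rule had gathered 6 h peaks, and 2.01 over chromosomes 1 to 20. The tissue is a mix of cell types, and a peak missing at 4 weeks cannot be told apart from one held by fewer cells.

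Nearly all 4-week peaks in the runs were at a 6 h site. Of the 34 peaks, 31 shared at least 1 bp with a 6 h peak (91.2%, exact Clopper-Pearson 95% interval 76.3 to 98.1%). Over chromosomes 1 to 20 the share of 4-week peaks with a 6 h overlap was 17.2%. Of the 4066 4-week peaks outside the spans 1243 had a 6 h peak within 10 kb, and 674 of those overlapped one (54.2%, 51.4 to 57.02%). The share inside runs is not on a like footing with either of these. In a run a 6 h peak is close by on both sides, and 6 h peaks covered 18.4% of the spans. The share expected for a 4-week peak placed anywhere in a span was not computed. In 21 cases the 4-week peak lay wholly inside a 6 h peak. The remaining 3 lay 147 bp from the nearest 6 h peak on chromosome 17 (2363361 to 2363570), 853 bp on chromosome 16 (54954067 to 54954283) and 2242 bp on chromosome 13 (103623223 to 103623507).

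Seen from the 6 h side, the overlap share in runs stood at the level of the rest of the list. Of the 363 run peaks, 31 overlapped a 4-week peak, which was 8.54% (5.88 to 11.9%), beside 8.54% of all 6 h peaks on chromosomes 1 to 20 and 8.54% (7.93 to 9.17%) of those outside runs. By group size the share went up and down without order. It was 8.03% for single peaks (7.37 to 8.73%), 11.3% in pairs (9.57 to 13.2%), 6.59% in groups of 3 (3.88 to 10.3%), 13.1% in groups of 4 (6.72 to 22.2%), 11.6% in runs of 5 to 9 (7.03 to 17.7%) and 6.25% in runs of 10 or more (3.37 to 10.5%). On chromosome 17 the share was 6.38% in runs (2.96 to 11.8%) and 7.96% outside (4.62 to 12.6%). Peaks at the 2 ends of a run overlapped in 7 of 72 cases (9.72%) and inner peaks in 24 of 291 (8.25%). These intervals hold counting error alone, and they assume independent peaks, whereas neighbours in a run may depend on one another.

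Since wide 6 h peaks overlapped the 4-week list more often in the list at large, the shares were also set side by side by class of width. Widths were not alike within all classes. Median widths of run peaks and others were 255 and 228 bp up to 350 bp, and 528.5 and 431 bp above it. From 351 to 500 bp they were 412 and 405 bp, and over 500 bp they were 697 and 587 bp. Among peaks up to 350 bp, 5.76% of run peaks (2.91 to 10.07%) and 6.23% of others (5.65 to 6.86%) had a 4-week peak. Among peaks wider than 350 bp the shares were 11.6% of 172 run peaks (7.25 to 17.4%) and 17.5% of 1616 others (15.6 to 19.4%). The 2 intervals of the wider peaks overlapped narrowly. In the class from 351 to 500 bp they did not, with 3 of 81 run peaks (3.70%, 0.770 to 10.4%) against 161 of 1165 others (13.8%, 11.9 to 15.9%). Over 500 bp they overlapped again, with 17 of 91 (18.7%, 11.3 to 28.2%) against 121 of 451 (26.8%, 22.8 to 31.2%). The run on chromosome 1 at 204825768 supplied 5 of the 20 overlapped wide peaks, and without it the share of wide run peaks was 9.09% (5.18 to 14.6%). Without the runs of chromosome 17 it was 14.0% (7.87 to 22.4%), and without only the largest of them 12.8% (7.74 to 19.4%), nearer to the 17.5% outside runs. Width classes were chosen after the widths were seen.

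**Figure D5:**
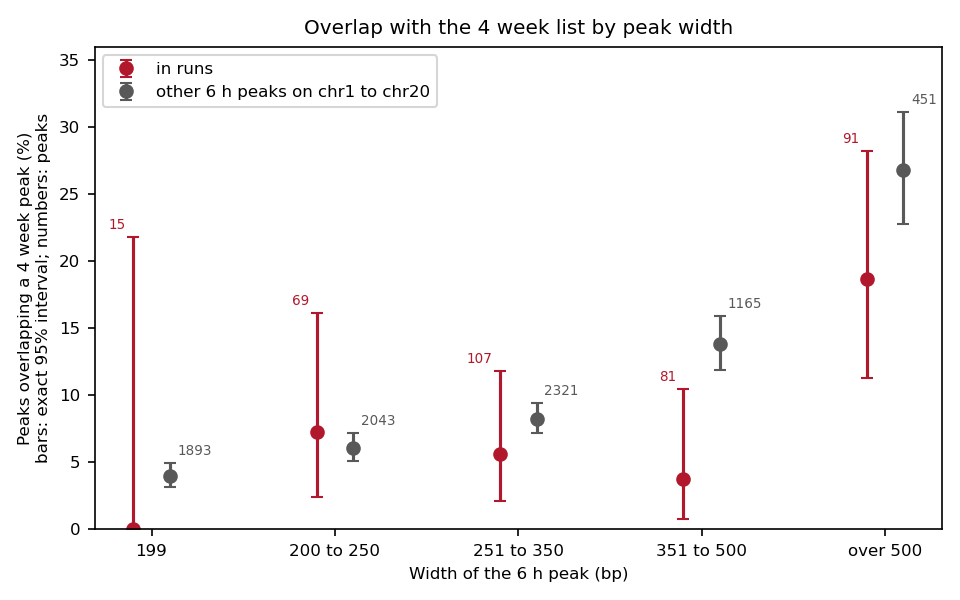
Percent of 6 h peaks overlapping a 4-week peak by 6 h peak width, in runs (red) and elsewhere on chromosomes 1 to 20 (grey), with exact 95% intervals and the number of peaks above each. The share goes up with width outside runs, and the red and grey intervals are apart only from 351 to 500 bp.

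Pooled over runs, the overlapped peaks were the wider ones, with a median width of 579 bp at 6 h, against 329.5 bp for run peaks with no 4-week peak. Within their own runs they were less one-sided, with 16 of the 31 above the median width of the run, 4 at it and 11 below it, and 9 were the widest of their run. The 4-week partner was usually the narrower, with a median of 343 bp, and the 6 h peak was wider in 28 of 31 cases. Widths of overlapping pairs outside the runs were not compared, so this is not read as particular to runs. The median overlap was 285 bp. The 34 4-week peaks in the spans were 205 to 719 bp wide, with a median of 295 bp, against 261 bp for all 4-week peaks on chromosomes 1 to 20.

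The run with the most 4-week peaks was on chromosome 1 at 204825768 to 204845734. It had 7 peaks in 19.97 kb, with widths of 448, 795, 968, 788, 735, 750 and 459 bp, so every one was wider than 350 bp. The inner 5 each had a 4-week peak, of 576, 563, 454, 470 and 469 bp, and the narrower ones at both ends had none. Its spacings of 4506, 1054, 6332, 1042, 1502 and 5080 bp gave a CV of 0.72. These 5 peaks were also a run by the same rule in the 4-week list, at 204830111 to 204840690. The only other 4-week run on these chromosomes, at 6954317 to 6983465 on chromosome 14 with 7 peaks, had 1 6 h peak in its span, which was in no 6 h run.

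The large chromosome 17 run at 2304582 to 2412362 had 4 4-week peaks for its 52 peaks. Of these, 3 lay inside 6 h peaks of 365, 1128 and 276 bp, the second being the widest of the run. The run at 8989396 to 9018610 had 2, of 358 and 476 bp, inside 6 h peaks of 760 and 590 bp. The 44-peak run at 9173313 to 9272674 had 2 as well, of 205 and 286 bp, at 6 h peaks of 237 and 297 bp, which ranked 38 and 29 by width there. None of the 23 peaks wider than 350 bp in the 44-peak run had a 4-week peak, and outside the runs 82.5% of peaks of such width had none either.

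Outside chromosomes 1 and 17, 3 runs had 2 4-week peaks. That on chromosome 6 at 43736959 to 43747733 had one at its first peak (209 bp at 6 h, 264 bp at 4 weeks) and one inside its 882 bp peak (401 bp), and none at its widest, of 905 bp. That on chromosome 13 at 103581203 to 103627758 had one inside a 611 bp peak (345 bp) and the one 2242 bp from any 6 h peak. The third was the evenly spaced run on chromosome 12. Both neighbouring runs on chromosome 15 at 5075789 to 5142203, with 13 peaks, and both on chromosome 14 at 8996605 to 9589508, with 10, had none. At the 8.54% of all 6 h peaks on chromosomes 1 to 20, so few peaks would hold few overlaps, and nothing is read from these zeros.

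Both lists were denser near the runs than far from them. The 4-week list had 41.5 peaks per Mb in the spans (exact Poisson 95% interval 28.7 to 58.0), 4.91 per Mb at 10 to 100 kb from a run (3.21 to 7.20), 1.92 at 100 kb to 1 Mb (1.54 to 2.38) and 1.51 farther away (1.46 to 1.56). The spans were chosen for their 6 h peaks, and 31 of the 34 4-week peaks there overlapped a 6 h peak. The 4-week density in the spans is thus not separate from the choice of members. How much of it goes with the gathered 6 h peaks was not tested. Run peaks overlapped the 4-week list at the same share as 6 h peaks elsewhere. For the 4-week list, only the flanks lie outside the choice of members. The flank interval at 10 to 100 kb lay above that of the farther stretches, with 26 peaks in 5.29 Mb. These density intervals hold counting error alone and assume independent peaks. Peaks near a run may depend on one another, and many runs share a neighbourhood, so the flanks are fewer separate places than runs. Within 10 kb of a run, where the rule leaves no 6 h peak, there were 4 4-week peaks in 0.704 Mb, or 5.68 per Mb (1.55 to 14.5). The flanks were placed by the same 6 h positions that made the runs, so 6 h densities are given only as a description. The 6 h list, outside the runs, had 13.03 peaks per Mb at 10 to 100 kb, 4.48 at 100 kb to 1 Mb and 2.90 farther away. For each 4-week peak there were thus 2.65, 2.33 and 1.93 6 h peaks in these stretches. On chromosome 17 the spans had 31.99 4-week peaks per Mb (15.3 to 58.8), and on the other chromosomes 47.4 (30.3 to 70.5).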

How the data were processed

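The submitters' processing notes name Bowtie2 2.0 and MACS2. Which settings, MACS2 version, build and filters the authors used, and whether animals were pooled, is not stated in the labels or headers. Both deposited peak lists hold 3 columns, sequence name, start and end, other measures such as a score being absent, and each sets ChIP against input of that time, per the file names. Starts were read as counted from 0, as in BED files, and are printed counted from 1; if they were counted from 1 already, starts and widths differ by 1 bp. Runs and overlaps (at least 1 bp) were computed with Python 3.11.15, pandas 2.3.3, numpy 2.4.6 and scipy 1.17.1, tested on simulated lists, and drawn with matplotlib 3.10.9. A description of sequence, planned only if a genome of the build was given, was not made, since no such genome was used. Of the runs, those described singly were the 10 with the most peaks, the 5 of lowest and 3 of highest spacing CV, and all with at least 2 4-week peaks; 1 more, on chromosome 1, was added after its values were seen. Members and this rule were chosen with earlier results of these data known. Alternatives changed the gap, the minimum of peaks, merging, narrowest peaks and the overlap.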

Additional observations from a re-analysis of the deposited data

How the results depend on the processing

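Of 56 alternative values, 20 left the interval of the reported one or, where it had no interval, differed from it by over 1.5 times, and 36 did not. Leaving out chromosome 17 or the chromosome 1 run richest in overlapped wide peaks, and a limit of 500 bp for wide peaks, were chosen after the data were seen. Gaps to 20 kb gave a median span of 27.2 kb. With at least 3 peaks there were 143 runs with 705 peaks, a median span of 7.36 kb and 71 4-week peaks in 49 runs; with at least 10 there were 10 runs with 208 peaks, 35.03 kb, and 15 4-week peaks in 9. Merging 6 h peaks within 1 kb left 16 runs with 154 merged peaks, 25.96 kb and a median spacing CV of 0.49, with 17 4-week peaks in 11 runs. Merging takes out the spacings across gaps of at most 1 kb and also changes which runs are counted. The CV after merging is thus not on a like footing with the main value, and what lowered it was not tested. Midpoints within 1 kb raised the overlapped share of run peaks to 12.4%. By that measure a single 4-week peak can count for several neighbouring 6 h peaks, and the share outside runs was not computed. Widening spans by 10 kb lowered the 4-week density to 24.9 per Mb, and run peaks wider than 500 bp overlapped in 18.7%. The overlapped share of run peaks was otherwise 6.25 to 9.91%. No paired analysis was possible because there is 1 ChIP library for each time. Without read depth, run peaks absent at 4 weeks cannot be split into those lost and those missed.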
